A study of Mus musculus with 2 samples.

Results

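MG4 is among the 4 meningeal clusters that the authors defined in a single-cell RNA atlas of the embryonic mouse coronal suture, and it is described there as an arachnoid layer. Its members are the cells that carry this deposited cluster label. Of 12165 labelled cells in 15 clusters, 266 carried the label MG4, comprising 64 of 5335 in the E15.5 library and 202 of 6830 in the E17.5 library. Both groups were wild-type mice of the strain given as C57/BL6, sampled at embryonic stages E15.5 and E17.5, with no treatment and no altered allele. The E15.5 library pooled 10 sutures dissociated with collagenase II and dispase, followed by removal of dead cells. The E17.5 library joined 3 batches of 16 sutures in all, taken from 2 litters, dissociated with collagenase IV and sorted by flow cytometry. Per the labels, skin, brain and part of the meninges had been removed first.

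The meninges enclose the brain in 3 layers, the dura mater beneath the bone, the arachnoid, and the pia mater on the brain surface. Arachnoid barrier cells are sealed by tight junctions containing claudin 11 and carry solute and organic anion transporters, so that the layer separates the cerebrospinal fluid from the dura. Meningeal cells also make retinoic acid and are coupled by connexin gap junctions.

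Each stage was deposited as 1 sample, here called a library although the E17.5 sample joins 3 batches, so no test of stage across animals was made, and intervals cover counting error only. A level is the number of UMIs (unique molecular identifiers, each marking 1 captured RNA molecule) of a gene summed over the cells of a group, scaled to a total of 1000000 UMIs in that group (CPM), with its exact Poisson 95% interval. The 64 cells at E15.5 held 664515 UMIs (median per cell 9400), and the 202 cells at E17.5 held 1899194 (median 8905). Other labelled cells had medians of 8498 and 12419. Since the deposited labels were made by clustering the same cells on the same genes, every contrast of MG4 with other clusters is a description.

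The 3 barcode suffixes of the E17.5 matrix, which the sources used here do not assign to batches, did not contribute alike. Suffix 1 held 7 MG4 cells among 1234 labelled cells (0.567%), suffix 2 held 102 among 2770 (3.68%), and suffix 3 held 93 among 2826 (3.29%). Between 8 and 42 barcodes were shared by any pair of suffixes or libraries, and 5 of the shared barcodes belonged to an MG4 cell. At E15.5, 11 of 64 MG4 cells (17.2%) had a high doublet score against 3.83% of the other labelled cells, while at E17.5 the shares were 5.94% and 4.86%. Values that rest on suffix 1 are given with and without it.

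The label was first checked against its 4 markers, *Cldn11* (a tight junction claudin), *Gjb6* (a gap junction connexin), *Vtn* (vitronectin, an adhesive matrix protein) and *Aldh1a2* (the retinaldehyde dehydrogenase that makes retinoic acid). *Cldn11* was at 479 CPM (427 to 534) in the E15.5 library and 1120 CPM (1073 to 1169) in the E17.5 library. *Gjb6* was at 27.1 CPM (16.1 to 42.8) and 198 CPM (178 to 219). *Vtn* was at 179 CPM (148 to 214) and 331 CPM (305 to 358), and *Aldh1a2* at 63.2 CPM (45.6 to 85.4) and 148 CPM (132 to 167). Among the 15 clusters, MG4 ranked first for each of the 4 genes in both libraries, with intervals apart from the cluster next to it. That neighbour was MG3 for *Cldn11* (173 and 239 CPM) and EC3, an ectocranial cluster, for *Aldh1a2* (19.1 and 16.2 CPM).

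**Figure D1:**
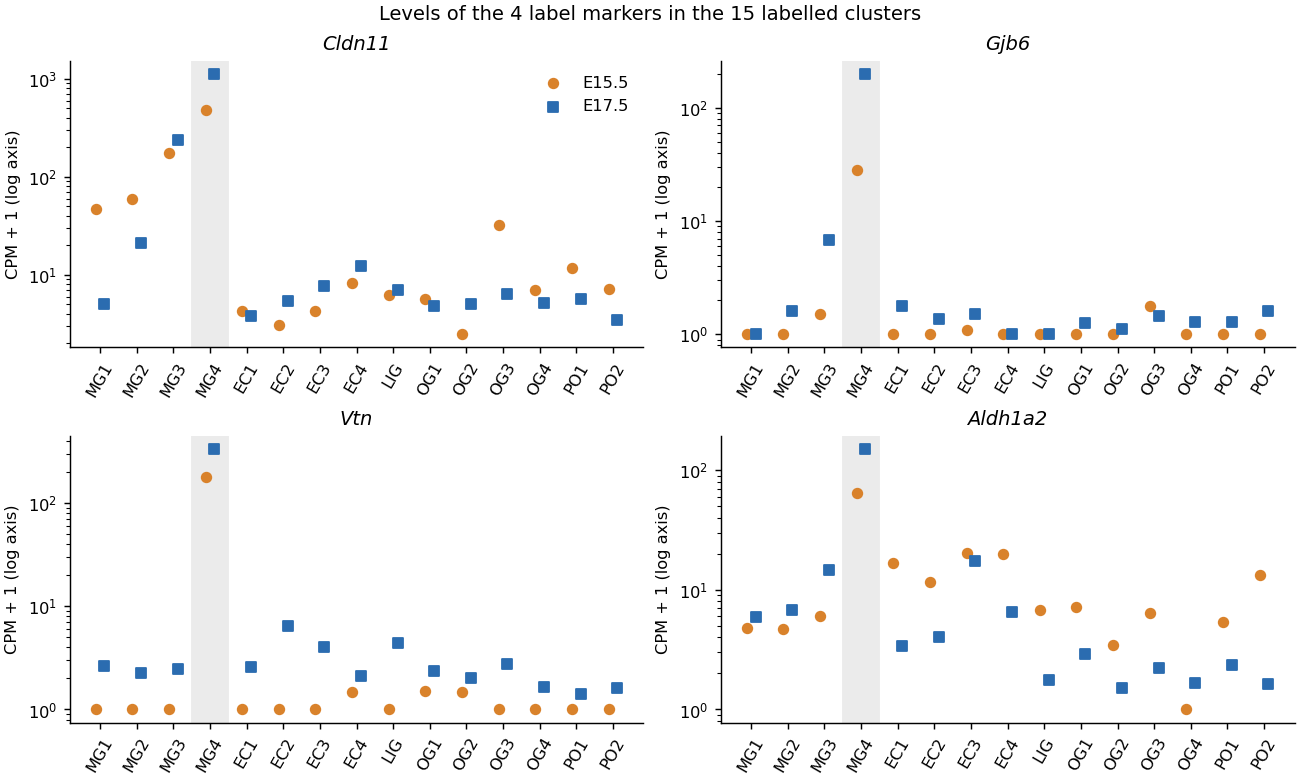
Level of each label marker (CPM + 1, log axis) in the 15 labelled clusters at E15.5 (circles) and E17.5 (squares), with MG4 on grey. MG4 is the highest point in all 4 panels; *Cldn11* is next highest in MG3, at 173 and 239 CPM.

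The markers were spread over the cells in different ways. *Cldn11* had a UMI in 55 of 64 MG4 cells in the E15.5 library and in 191 of 202 in the E17.5 library. *Gjb6* was seen in 9 and 110 cells, *Vtn* in 7 and 96, and *Aldh1a2* in 17 and 91. Thus *Cldn11* marked most MG4 cells at both stages, whereas the other 3 markers were found in a minority at E15.5. In the ligament-like cluster LIG, used as a cluster that should lack the connexin, *Gjb6* was seen in 0 of 497 and 0 of 675 cells (counts of 0 allow shares of up to 0.604% and 0.444%). LIG cells had medians of 7115 and 12300 UMIs. *Cldn11* was seen in 3.42% and 5.33% of them. After thinning each cell to 3000 UMIs, the share of MG4 cells with *Gjb6* was 8.06% in the E15.5 library (2.67 to 17.8) and 37.1% in the E17.5 library (30.5 to 44.2). At least 3 of the 4 markers were found together in 8 of 64 MG4 cells and in 94 of 202. Outside MG4, no other labelled cell in the E15.5 library and 5 of 6628 in the E17.5 library held 3 or more.

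A small group of cells carried nearly all of the *Ptgds*, *Slc6a13* and *Slc22a6* UMIs of MG4. *Ptgds*, the lipocalin-type prostaglandin D synthase, *Slc6a13*, a transporter of GABA and taurine, and *Slc22a6*, an organic anion transporter, are genes of the mature arachnoid barrier. At E15.5 all 52 *Ptgds* UMIs lay in 4 cells and all 35 *Slc22a6* UMIs in 5 cells. At E17.5, 585 of 587 *Ptgds* UMIs lay in 2 cells, which had 346 and 239. Those 2 cells also held 38 of 41 *Slc6a13* UMIs and all 22 of *Slc22a6*. Taking cells with at least 3 UMIs of these genes together, a limit chosen after the values were seen, gave 5 of 64 cells in the E15.5 library and 2 of 202 in the E17.5 library. The cell with the least inside the limit had 8 UMIs in the E15.5 library and 267 in the E17.5 library, and the next outside had 1 and 2. Both E17.5 cells came from suffix 1. In suffixes 2 and 3, *Ptgds* had 1 UMI and 0 UMIs, and *Slc6a13* had 1 UMI and 2 UMIs.

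The same few cells held almost all of the *Vtn* of MG4 at E15.5, but not at E17.5. At E15.5 the 5 cells had 116 *Vtn* UMIs and the other 59 had 3, found in 2 cells. At E17.5 the 2 cells had 39 *Vtn* UMIs, while 94 of the other 200 cells had 589. Without these cells the *Vtn* level was 4.91 CPM in the E15.5 library (1.01 to 14.3) and 313 CPM in the E17.5 library (288 to 339). *Gjb6* without them was at 9.82 CPM (3.60 to 21.4) and 193 CPM (174 to 214). *Cldn11*, by contrast, was little altered, at 442 CPM (391 to 498) and 1116 CPM (1068 to 1164). The E15.5 level of *Vtn* therefore describes mainly 5 cells, and its E17.5 level describes 96.

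**Figure D2:**
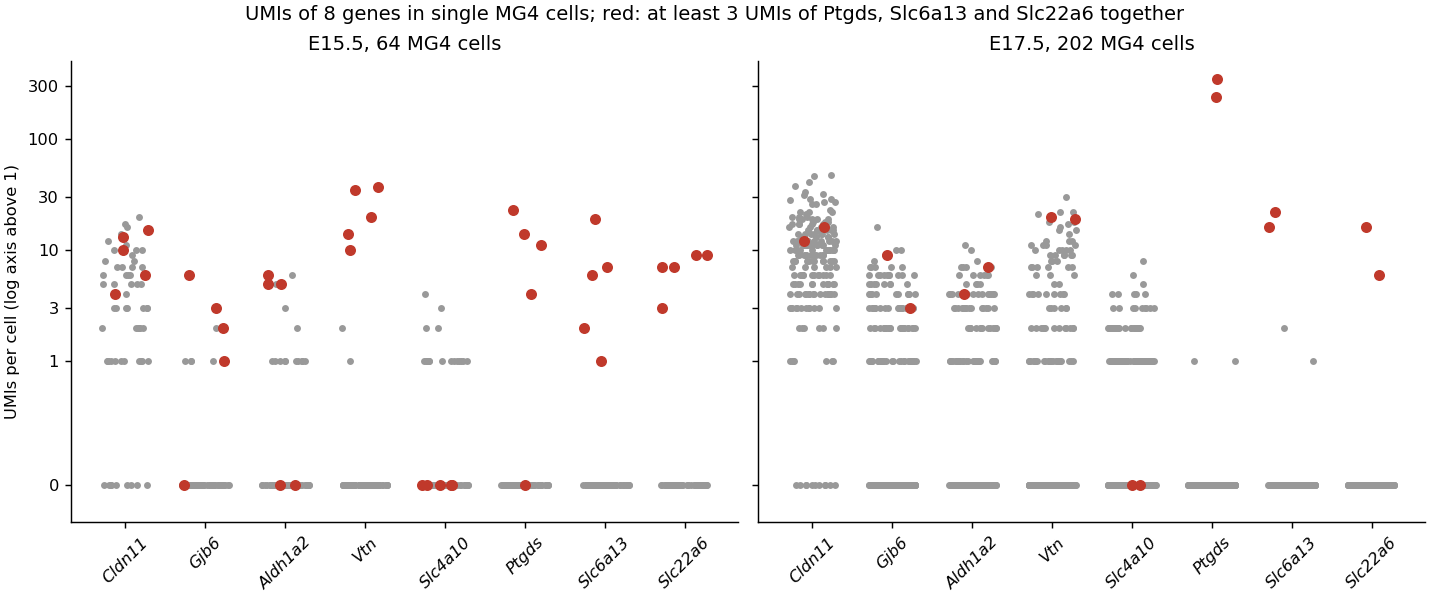
UMIs per cell (log axis above 1) of 8 genes in the 64 MG4 cells in the E15.5 library and the 202 in the E17.5 library; each point is a cell, and red points are the 5 and 2 cells with at least 3 UMIs of *Ptgds*, *Slc6a13* and *Slc22a6* together. *Vtn* is almost confined to red points in the E15.5 library and is found in 96 cells in the E17.5 library, while *Cldn11* is spread over most cells at both stages.

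The 5 and 2 cells differed from the remaining MG4 cells in many further genes. By the criterion of a 2-fold difference with intervals apart in both libraries, 72 of 5733 genes were higher in them and 20 were lower. These counts include the 3 genes that chose the cells and rest on 7 cells in all. *Fgfbp1*, a carrier of fibroblast growth factors, had 21 UMIs in all 5 cells and 1 in the other 59 at E15.5, and 22 UMIs in both cells and 0 in the other 200 at E17.5. *Slc13a4*, a sulphate transporter, had 5 UMIs against 2 and 18 against 7. *Nnat*, encoding the membrane proteolipid neuronatin, was at 1986 against 34.4 CPM and at 3524 against 109 CPM. *Apod* (apolipoprotein D) was at 1049 against 60.5 CPM and at 3244 against 67.5 CPM. *Bmp7* was at 431 against 39.3 CPM and at 783 against 14.9 CPM.

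*Eln*, *Mgp* and *Col1a2* were among the 20 genes lower in these cells. *Eln* (elastin) had 1 UMI in them at each stage, against 376 and 483 CPM in the other MG4 cells. *Mgp* (matrix Gla protein) was at 150 against 918 CPM and at 112 against 1767 CPM, and *Col1a2* at 1255 against 4089 CPM and at 1510 against 4885 CPM. *Foxp1* and *Fxyd5*, which mark the dura, were at 150 against 507 CPM and 75.0 against 772 CPM at E15.5. Median depths of the 5 and 2 cells of 10343 and 8938.5 UMIs were close to the 9351 and 8905 of the other cells, and 2 of the 5 and 0 of the 2 had a high doublet score. Outside MG4, 2 other labelled cells and 14 unlabelled cells reached the same limit in the E15.5 library, and 1 and 5 in the E17.5 library. With *Slc6a13* and *Slc22a6* counted without *Ptgds*, these fell to 0 and 5 cells in the E15.5 library and 0 and 2 in the E17.5 library. The MG4 cells stayed at 5 and 2.

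MG4 was next compared with all other labelled cells. A gene was taken as higher or lower where the ratio of CPM reached 2-fold and the intervals did not overlap in both libraries, among genes whose mean CPM of the groups was at least 10. By this criterion 178 of 7141 genes (2.49%) were higher in MG4 and 154 (2.16%) were lower. Without suffix 1, 172 genes were higher, of which 170 were shared. *Ptgds* and *Slc6a13* were among the 8 that no longer met it. Without the 7 transporter-rich cells 165 genes were higher, 160 of them shared, and *Vtn*, *Gjb6*, *Ptgds*, *Slc6a13* and *Zic4* were among the 18 that no longer met it. For *Vtn* and *Gjb6* this was because their mean level at E15.5 fell below 10 CPM. Their E15.5 intervals without these cells, given above, stayed over those of the other labelled cells (at most 0.243 and 0.183 CPM). Without the same cells 170 genes were lower, 147 of them shared. The median log2 ratio of all genes was 0.01 in the E15.5 library and 0.08 in the E17.5 library.

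Of 15 connexin genes, 5 reached the minimum level and 3 were higher in MG4 (*Gjb6*, *Gjb2* and *Gja1*). *Gjb6* and *Gjb2* reached the minimum only through their level in MG4. Without the 7 cells *Gjb6* fell below the minimum at E15.5 and so did not meet the criterion. *Gjb6* was 433-fold higher (126 to 2294) in the E15.5 library and 485-fold higher (346 to 700) in the E17.5 library. *Gjb2*, its neighbour on chromosome 14 (GRCm38, 57098600 to 57104702, against 57123303 to 57133611 for *Gjb6*), was at 28.6 CPM against 0.355 and at 91.6 CPM against 0.353. It was seen in 13 and 73 MG4 cells, and in 0% and 0.296% of LIG cells. *Gja1*, the connexin gene shared with the dura, was at 1860 and 1466 CPM, 9.61-fold and 9.96-fold above the other cells. It had a UMI in all 64 cells in the E15.5 library and in 201 of 202 in the E17.5 library.

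Among 29 tight and adherens junction genes, 10 reached the minimum level, 3 were higher and 1 was lower. *Cldn11* was 31.3-fold higher (27.4 to 35.8) in the E15.5 library and 102-fold higher (94.3 to 110) in the E17.5 library. *Lsr*, whose product organises the corners where 3 cells meet, was at 51.2 against 1.71 CPM and at 29.5 against 0.871 CPM. *Cdh5*, the cadherin best known from endothelium, was at 82.8 against 6.53 CPM and at 60.6 against 4.21 CPM. *Cdh2* (N-cadherin) was lower, at 6.02 against 42.0 CPM and at 11.6 against 51.0 CPM. *Ocln*, *Cldn1*, *Cldn3*, *Cldn4*, *Cldn5* and *Cdh1* were among the 19 that did not reach the minimum level. *Cldn11* was thus the 1 claudin of the list that reached it.

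**Figure D3:**
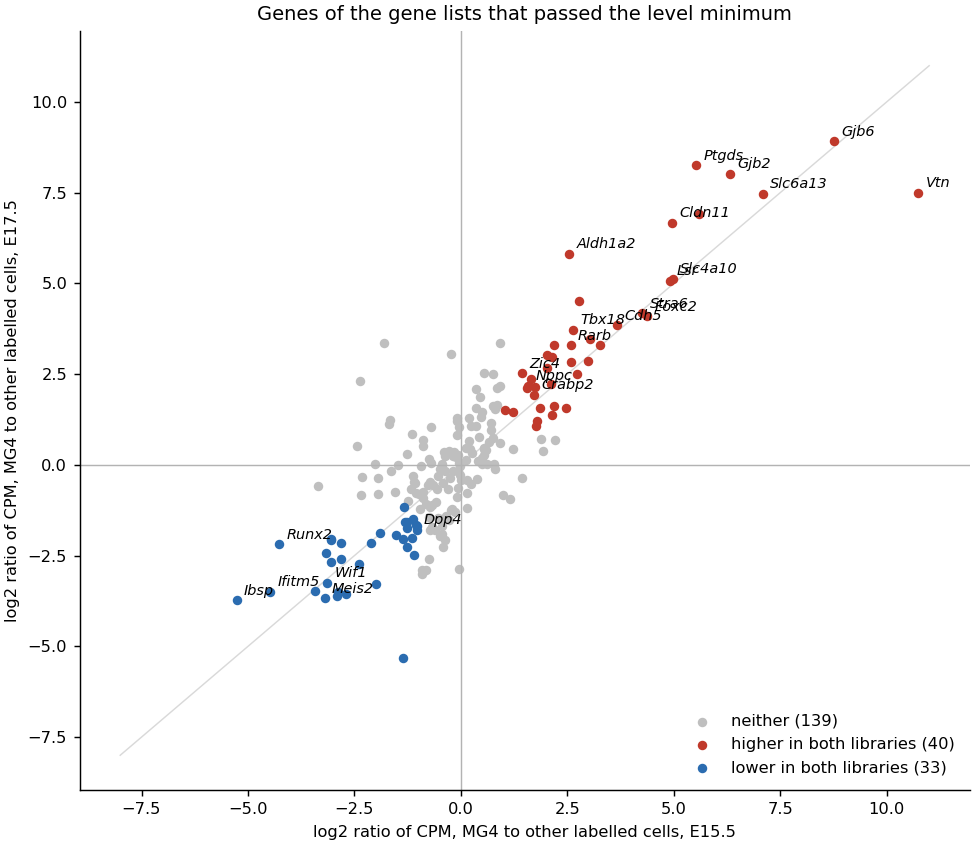
Log2 ratio of CPM in MG4 to the other labelled cells at E15.5 (x axis) and E17.5 (y axis) for the 212 genes of the gene lists that reached the minimum level; red, 40 genes higher in both libraries, blue, 33 lower, grey, 139 neither. *Gjb6*, *Vtn* and *Slc6a13* are among the points at the upper right, and *Ibsp*, *Ifitm5* and *Runx2* among those at the lower left.

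Of 33 transporter genes, 15 reached the minimum level and 7 were higher in MG4. *Slc4a10*, a sodium bicarbonate transporter, was at 36.1 against 1.15 CPM and at 92.1 against 2.62 CPM, and was seen in 17 and 101 cells. *Slc4a4*, another bicarbonate transporter, was at 55.7 against 13.7 CPM and at 24.7 against 3.89 CPM. *Atp1b1*, a beta subunit of the sodium pump, was 3.11-fold and 5.17-fold higher. *Slc12a2* and *Slc16a1*, which carry chloride with sodium and potassium, and monocarboxylates, were 3.62-fold and 4.52-fold higher at E15.5. *Slc6a13* was 137-fold and 178-fold higher, and rests on the transporter-rich cells. *Slc6a13* was seen in 6 and 4 cells and *Slc22a6* in 5 and 2.

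Of 23 genes of the retinoic acid pathway, 13 reached the minimum level, 5 were higher in MG4 than in the other labelled cells and 1 was lower. Against MG3, *Aldh1a2* was higher and the other 12 of 13 genes met neither direction, with median log2 ratios of 0.05 and -0.16. *Stra6*, the receptor that takes up retinol from its plasma carrier, was at 57.2 against 2.98 CPM and at 35.3 against 1.95 CPM, with MG3 at 48.3 and 53.9 CPM. *Aldh1a2* was 5.86-fold higher (4.17 to 8.03) in the E15.5 library and 56.6-fold higher (47.4 to 67.5) in the E17.5 library, with the other cells at 10.8 and 2.62 CPM. *Crabp2*, which delivers retinoic acid to the nucleus, was 3.29-fold and 3.84-fold higher. *Aldh1a3*, a paralogue of *Aldh1a2*, was lower, with 10 UMIs and 1 UMI and ratios of 0.391 (0.187 to 0.720) and 0.0251 (0.000635 to 0.140), and no longer met the criterion without suffix 1. The median log2 ratio over the 13 genes was 0.99 in the E15.5 library and 0.70 in the E17.5 library.

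*Rarb*, the retinoic acid receptor beta gene, was at 37.6 against 6.30 CPM in the E15.5 library and at 64.2 against 6.51 CPM in the E17.5 library, ratios of 5.97 and 9.87. *Rarb* was seen in 21 of 64 and 89 of 202 MG4 cells, and in 46 of 200 and 49 of 165 MG3 cells. Against MG3 it met neither direction. *Rarb* is a textbook target of its own ligand, and its promoter is shown as background. The gene and the form of the repeat were set before the search, so the match is not a result about MG4. Whether retinoic acid acts on these cells was not tested. The RefSeq promoter at chr14:16575427-16575726 (GRCm38.p6, minus strand, 250 bases before the start site to 50 after it) lies inside the annotated gene (16430839 to 16819156). In capitals is a direct repeat of GTTCA with 6 bases of any kind between its copies, a form of the retinoic acid response element, which begins 52 bases before the start site.
*Rarb* promoter: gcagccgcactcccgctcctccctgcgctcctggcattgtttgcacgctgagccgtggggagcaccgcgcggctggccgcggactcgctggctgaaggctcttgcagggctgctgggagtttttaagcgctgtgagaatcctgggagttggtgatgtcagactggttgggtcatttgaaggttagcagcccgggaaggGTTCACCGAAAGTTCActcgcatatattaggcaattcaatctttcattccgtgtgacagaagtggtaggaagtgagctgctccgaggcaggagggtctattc
On either strand, 25 of 32851 RefSeq promoters of that length (0.0761%) held this repeat. Of the 292 genes named or listed here with a promoter in the table, *Rarb* and *Cyp26a1*, which encodes an enzyme that degrades retinoic acid, were the ones that held it. *Cyp26a1* had 0 UMIs in MG4 at both stages, whose Poisson upper limits were 5.55 and 1.94 CPM.

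Among 44 transcription factor genes, 28 reached the minimum level, 11 were higher in MG4 and 2 were lower. The forkhead genes formed the largest block of these. *Foxc2* was 20.8-fold higher (15.8 to 27.2) in the E15.5 library and 17.2-fold higher (14.4 to 20.4) in the E17.5 library, and was seen in 42 and 111 cells. In MG3 it was seen in 77 of 200 and 110 of 165 cells. *Foxc1*, which is required for meningeal and skull development, was 6.64-fold and 5.71-fold higher. *Foxd1* was 7.89-fold and 7.33-fold higher, and *Foxp1* 4.36-fold and 4.70-fold higher. *Tbx18*, an arachnoid marker, was 6.21-fold and 13.2-fold higher. *Nr2f2*, an orphan nuclear receptor, was 4.39-fold and 7.92-fold higher, and *Msx1* 5.51-fold and 2.94-fold higher. *Zic4*, *Zic5* and *Eya2* were also among the 11. Against MG3, *Tbx18* and *Zic4* were higher and the other 24 of 26 genes tested met neither direction, with median log2 ratios of 0.05 and 0.13. *Runx2*, the master regulator of osteoblasts, had 1 UMI in MG4 in the E15.5 library and was at 19.0 against 85.9 CPM in the E17.5 library, and *Meis2* was at 6.02 against 55.3 CPM and at 2.63 against 33.5 CPM.

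Layer markers from the meninges were mixed. Of 12 arachnoid genes, 7 reached the minimum level, 5 were higher (*Aldh1a2*, *Cldn11*, *Ptgds*, *Slc6a13* and *Tbx18*) and *Dpp4* was lower, with median log2 ratios of 2.63 and 5.82. Of 10 dura genes, all reached the minimum level, 6 were higher and none was lower, with medians of 1.65 and 2.04. *Crabp2*, *Foxp1*, *Fxyd5*, *Gja1* and *Nppc* were among the 6. *Fxyd5*, a regulator of the sodium pump, was at 716 CPM (8.25-fold) and 1185 CPM (11.2-fold) and was seen in 60 and 200 cells. Of 5 pia genes, only *S100a6* reached the minimum level, and it was lower, at 278 against 571 CPM and at 146 against 465 CPM. The arachnoid genes *Cdh1*, *Klf5*, *Krt18*, *Ppp1r1a* and *Wnt6* did not reach the minimum level. *Cldn11* and *Aldh1a2* are also markers of the label, so their place in the arachnoid count is not independent of it. *Ptgds* and *Slc6a13* rest on the 7 transporter-rich cells and no longer met the criterion without them, or without suffix 1. *Tbx18* is the remaining gene of the 5.

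Secreted factors gave no common direction. Of 46 genes, 29 reached the minimum level, 3 were higher and 3 were lower, with median log2 ratios of -0.41 and 0.12. *Sfrp1*, a Wnt antagonist, was at 558 and 196 CPM, 4.52-fold and 9.93-fold above the other cells. *Nppc*, the precursor of C-type natriuretic peptide, was 2.99-fold and 4.55-fold higher, and *Tgfb2* 2.07-fold and 2.87-fold higher. The Wnt regulators *Rspo1*, *Sfrp2* and *Wif1* were lower, *Sfrp2* at 247 against 2045 CPM and at 494 against 2017 CPM. In the insulin-like growth factor system, *Igfbp2* was at 816 and 3288 CPM (5.97-fold and 7.12-fold higher), whereas *Igfbp3* was at 27.1 against 108 CPM and at 32.6 against 319 CPM. These 2 binding proteins, which hold the growth factor in the extracellular space, thus differed in opposite directions. They were the only called members of 10 tested, 8 met neither direction, and the median log2 ratios were -0.50 and -0.45. Against MG3 none of the 10 was higher, and *Igfbp3* and *Igfbp7* were lower.

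Among matrix genes, *Col4a1* and *Col4a2*, which encode basement membrane collagens, were higher. *Col4a1* was 2.35-fold and 2.77-fold higher and *Col4a2* 3.47-fold and 2.29-fold higher. Of 23 basement membrane genes, 14 reached the minimum level, 3 were higher with *Vtn*, and *Fbln2* was lower. Of 24 fibrillar matrix genes, 23 reached it, none was higher, and *Aspn* and *Tnc* were lower (*Tnc* not without the 7 cells), with median log2 ratios of -0.58 and -0.66. *Aspn*, encoding asporin, was at 161 against 843 CPM and at 182 against 1204 CPM.

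Of 8 osteoblast genes, 6 reached the minimum level, 3 were lower (*Ibsp*, *Ifitm5* and *Runx2*) and 3 met neither direction. *Ibsp* (bone sialoprotein) was at 42.1 against 1622 CPM in the E15.5 library and at 130 against 1710 CPM in the E17.5 library, and *Ifitm5* at 6.02 against 134 CPM and 37.9 against 426 CPM. At E17.5 *Ibsp* still had a UMI in 135 of 202 MG4 cells, with a ratio of 0.997 to MG3. The part of free RNA in this low level was not tested. Of 8 ectocranial genes, 6 were lower, among them *Dpt* (39.1 against 296 CPM and 8.42 against 104 CPM) and *Pi16* (36.1 against 300 CPM and 30.0 against 193 CPM). Of 14 immediate-early and stress genes that respond to dissociation and reached the minimum level, 8 were lower in MG4 than in the other labelled cells, with median log2 ratios of -1.09 and -1.68, and none met the criterion against MG3. *Junb* was at 114 against 492 CPM and at 71.1 against 313 CPM.

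Most MG4 cells were called G1 in the deposited phases. At E15.5, 54 of 64 were in G1 (84.4%, 73.1 to 92.2) against 67.5% of the other labelled cells, and at E17.5, 169 of 202 (83.7%, 77.8 to 88.5) against 64.6%. MG3 had 89.5% and 95.8% in G1. Of 12 proliferation genes, all reached the minimum level, none was higher and *Rrm2* and *Top2a* were lower. Against MG3 none of 11 met the criterion, and 10 of the 12 lay above MG3 at E17.5. *Top2a*, a topoisomerase of dividing cells, was at 52.7 against 127 CPM and at 30.5 against 146 CPM. These calls read depth and free RNA as well as the cycle, and the part of either was not tested.

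Markers of other cell types were checked because vessels run through the arachnoid and because *Vtn* and *Cdh5* are also vascular genes. Of the pericyte list, *Vtn* was higher and *Kcnj8* and *Ndufa4l2* were lower. *Rgs5*, a defining pericyte gene, had 1 UMI in 64 cells and 10 UMIs in 202 cells, and *Higd1b* had 0 at both stages. In unlabelled cells with at least 3 *Rgs5* UMIs, *Rgs5* was at 1424 and 2508 CPM and *Vtn* at 35.4 and 237 CPM. Of the endothelial list, *Cdh5* and *Egfl7* were higher, but *Pecam1* had 2 and 5 UMIs, *Kdr* 1 and 2, *Tie1* 0 and 1, and *Cldn5* 1 and 2. Not all markers were so low. *Pdgfrb* had 26 and 120 UMIs (39.1 and 63.2 CPM) and met neither direction, *Notch3* had 6 and 39 UMIs, and *Emcn* 0 and 17. The part of vascular cells in these levels was not tested.

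The summed level of the remaining lists was as follows. The 8 myeloid genes summed to 31.6 CPM in MG4 against 49.6 in the other cells in the E15.5 library, and to 127 against 132 in the E17.5 library. None of the myeloid or neuron genes reached the minimum level. The 6 erythroid genes summed to 9900.5 against 10870.2 CPM in the younger library and 680 against 543 CPM in the older. Of the keratinocyte list, *Perp*, a desmosome gene, was higher (21.1 against 3.07 CPM and 82.7 against 3.63 CPM), while 4 and 3 of its 8 genes were at 0 UMIs. None of the Schwann and glia, chondrocyte, mast or erythroid genes met the criterion in either direction.

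MG3, the dura mater cluster, was the most similar to MG4. Across 7141 genes Pearson's r of log2(CPM + 1) between them was 0.949 in the E15.5 library and 0.933 in the E17.5 library, and MG2 followed with 0.916 and 0.903. These correlations are across genes of 1 library and carry no test. Of 6987 genes, 34 were higher in MG4 than in MG3 (0.487%) and 43 were lower (0.615%). Without the transporter-rich cells 21 were higher, 20 of them shared, and *Vtn*, *Gjb6*, *Ptgds*, *Slc6a13*, *Slc1a3* and *Zic4* were among the 14 that no longer met the criterion. *Vtn* and *Gjb6* then lay below the minimum level at E15.5.

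Among the 34 genes higher than in MG3 were *Gjb6*, *Gjb2*, *Cldn11* and *Aldh1a2*. *Gjb6* was 53.3-fold (8.41 to 2219) and 33.7-fold (19.0 to 65.7) above MG3, in which it had 1 and 12 UMIs, and *Gjb2* 9.37-fold and 13.4-fold. *Aldh1a2* was at 63.2 against 5.09 CPM and at 148 against 13.7 CPM. *Ptger3*, a receptor of prostaglandin E2, was at 21.1 against 2.03 CPM and at 24.2 against 1.47 CPM, and *Ifitm1* at 117 against 16.3 CPM and at 179 against 27.4 CPM. *Tbx18* was 3.70-fold and 3.11-fold higher. MG3 had no *Vtn* UMI at E15.5, so that the ratio was at least 117-fold with 3 UMIs entered for 0, and at E17.5, with 3 UMIs in MG3, it was 225 (76.6 to 1094).

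For *Gja1* the ratio of MG4 to MG3 was 1.22 and 0.987, for *Foxd1* 1.01 and 0.879, and for *Cdh5* 1.39 and 0.744. None of the 10 dura genes was higher in MG4 than in MG3, and *Nppc* was lower, at 0.425 and 0.295 of the MG3 level. Of 22 fibrillar matrix genes tested, 4 were lower than in MG3 (*Aspn*, *Col14a1*, *Col1a1* and *Col1a2*), and of 27 secreted factors, *Nppc* and *Pdgfa* were. *Col14a1*, a fibril-associated collagen, was at 263 against 1272 CPM and at 148 against 794 CPM, *Chrd* (chordin, an inhibitor of bone morphogenetic proteins) at 6.02 against 24.4 CPM and at 6.32 against 28.9 CPM, and *Hhip* (a hedgehog inhibitor) at 9.03 against 33.6 CPM and at 5.27 against 22.1 CPM. Without suffix 1, *Aspn* no longer met the criterion.

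MG4 took a larger share of labelled cells at E17.5, 2.96% (2.57 to 3.39), than at E15.5, 1.20% (0.925 to 1.53), a ratio of 2.47 (1.85 to 3.32). Suffix 1 alone gave the opposite direction, 0.473 (0.183 to 1.03), and without it the ratio was 2.90. As a share of the meningeal clusters MG1 to MG4 it was 9.97% and 16.0%, a ratio of 1.60. The stages were also dissociated, sorted and processed differently, so stage cannot be told apart from handling, and the amount of meninges left by the dissection was not measured.

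Levels were then compared between stages, each as the ratio of E17.5 to E15.5 in MG4 divided by the same ratio in the other labelled cells. The other labelled cells differed in make-up between the libraries. In the E15.5 and E17.5 libraries MG1 made up 0.525% and 6.19% of labelled cells, MG2 6.56% and 6.93%, and MG3 3.75% and 2.42%. The part of this make-up in the ratios of the other cells was not tested. A relative change of 3-fold with the intervals of the 2 ratios apart was met by 308 of 7875 genes in the upward direction (3.91%) and by 116 downward (1.47%). *Igf1* was at 90.3 CPM in the E15.5 library and 579 CPM in the E17.5 library, a ratio of 6.41 in MG4 against 0.250 in the other cells. *Cxcl12*, a chemokine, was at 278 and 757 CPM (2.72 against 0.495), and *Rspo3*, a Wnt agonist, at 36.1 and 117 CPM (3.25 against 0.459). *Ebf1* and *Nr2f1*, transcription factors, were at 147 and 401 CPM and at 28.6 and 93.2 CPM. Of 36 secreted factors tested in this way, 6 met the criterion upward and 3 downward, and of 34 transcription factors 6 and 2. Of 10 arachnoid genes 4 met it upward and 0 downward, and of 10 dura genes 0 and 1.

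The label markers differed in how they moved. *Aldh1a2* met the criterion upward, with a ratio of 2.35 in MG4 against 0.243 in the other cells, and so did *Cldn11*, with 2.34 (2.08 to 2.64) against 0.721. *Gjb6* was 7.31-fold (4.56 to 12.5) higher at E17.5 in MG4 and 6.52-fold (2.06 to 33.1) in the other cells, in which it had 3 and 37 UMIs. *Vtn* met it downward, because its ratio of 1.85 in MG4 was below the 17.4 of the other cells, where it had 5 and 165 UMIs. Without the transporter-rich cells the direction of *Vtn* turned. Its ratio in MG4 was then 63.8 (21.7 to 310), a relative ratio of 3.66, with overlapping intervals.

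The lowest relative ratios included *Fras1*, an extracellular matrix gene, at 67.7 and 8.42 CPM. *Sema3d*, an axon guidance cue, at 61.7 and 6.32 CPM, and *Fos*, at 832 and 134 CPM, also met the criterion downward. Among the highest were *Gucy1a3*, a subunit of the nitric oxide receptor, with 1 UMI in the E15.5 library and 33.7 CPM in the E17.5 library, *Cyp1b1*, a cytochrome P450, at 10.5 and 64.8 CPM, and *Emb* (embigin), with 2 UMIs and 67.9 CPM. *Npr3*, the clearance receptor for natriuretic peptides, had 2 UMIs in the E15.5 library and was at 25.3 CPM in the E17.5 library. All of these are contrasts of 1 sample with 1 sample.

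**Figure D4:**
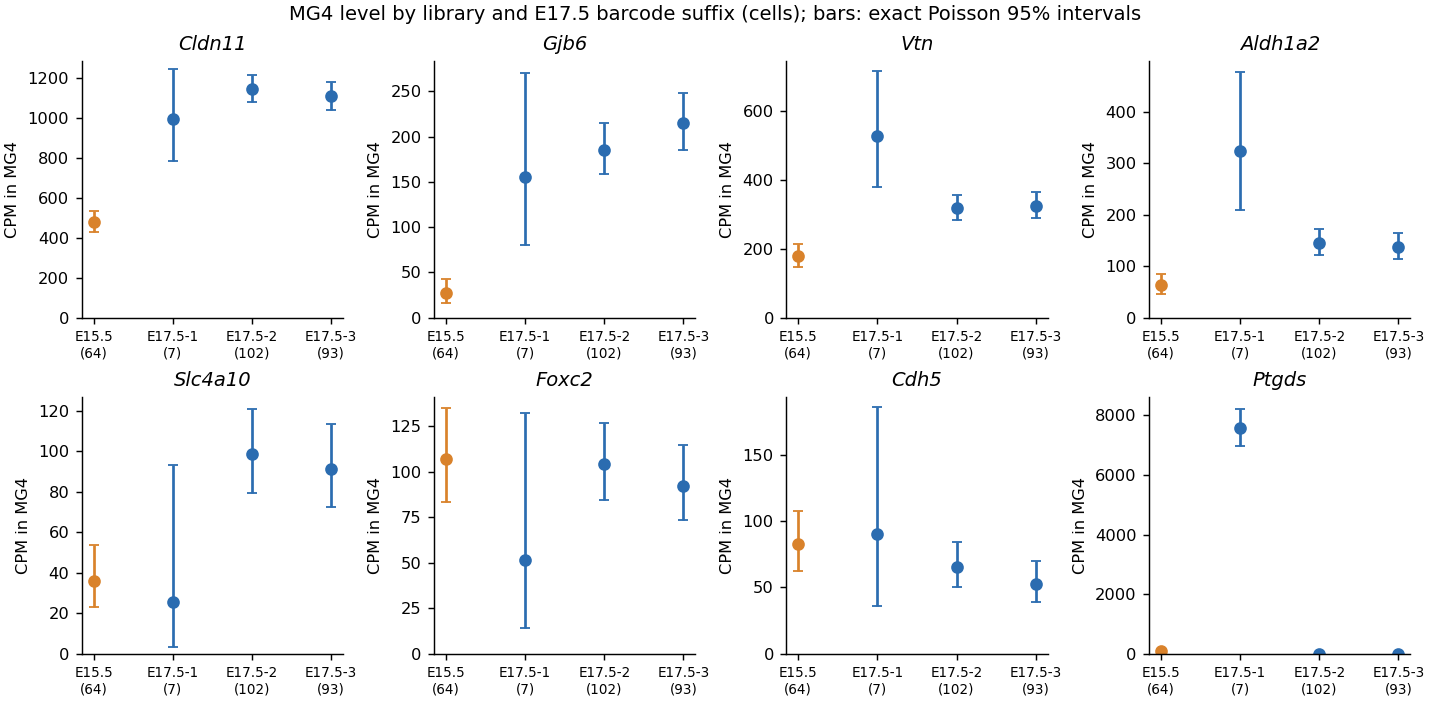
Level in MG4 (CPM, linear axis from 0) of 8 genes at E15.5 and in the E17.5 barcode suffixes 1, 2 and 3, with cell numbers in parentheses and exact Poisson 95% intervals as bars. *Cldn11* and *Gjb6* are higher at E17.5 in suffixes 2 and 3 alike, whereas *Ptgds* reaches 7563 CPM in suffix 1 only, with 1.07 and 0 CPM in suffixes 2 and 3.

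Suffixes 2 and 3 gave like levels of the spread markers. *Gjb6* was at 185 CPM (159 to 215) and 215 CPM (186 to 248), and *Vtn* at 319 CPM (284 to 358) and 325 CPM (289 to 365). *Cldn11* was at 1143 and 1106 CPM. In suffix 1, *Gjb6* had 12 UMIs in all.

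Within MG4 at E17.5, Leiden clustering divided the 202 cells into 5 subgroups of 25, 53, 60, 52 and 12 cells, and their leading genes are a description, since these genes made the clusters. The 4 label markers did not move together across them. Subgroup 4, of 29 cells from suffix 2 and 23 from suffix 3, had *Gjb6* at 394 CPM against 134 in the other MG4 cells, *Vtn* at 817 against 171, *Gjb2* at 187 against 60.2 and *Aldh1a2* at 290 against 102. It also had *Igf1* at 1194 against 376 CPM, *Nppc* at 162 against 59.5 and *Abcb1a*, an efflux pump of tissue barriers, at 40.4 against 9.79. *Cyp1b1* was at 200 against 20.3 CPM and *Ramp1*, a receptor activity-modifying protein, at 72.4 CPM, with 10 UMIs in the other MG4 cells. *Ptgds* had 1 UMI there and *Slc6a13* had 0, so that these 52 cells were not the transporter-rich ones.

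Subgroup 1 was high in *Aldh1a2*, at 400 against 113 CPM, yet had 2 *Gjb6* UMIs and 1 *Gjb2* UMI. It led with *Ces2g* (92.6 against 8.43 CPM) and *Ebf2* (75.8 against 10.2 CPM), and 7 of its 25 cells had a high doublet score, against 5 of the other 177. The part of doublets in this subgroup was not tested. Subgroup 2 contained both transporter-rich cells, and its leading *Ptgds*, *Slc6a13* and *Slc22a6* rest largely on them. It had the lowest *Cldn11*, 684 CPM, and *Igf1* at 98.2 CPM. Subgroup 3 had *Aldh1a2* at 36.2 against 188 CPM and *Gjb6* at 221 against 190. Subgroup 5, with 9 of 12 cells in G2M and 4 with a high doublet score, led with the mitotic genes *Aspm*, *Kif11* and *Nuf2*, had *Top2a* at 227 against 14.3 CPM, and had *Cldn11* at 1129 CPM and *Gjb6* at 158 CPM.

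**Figure D5:**
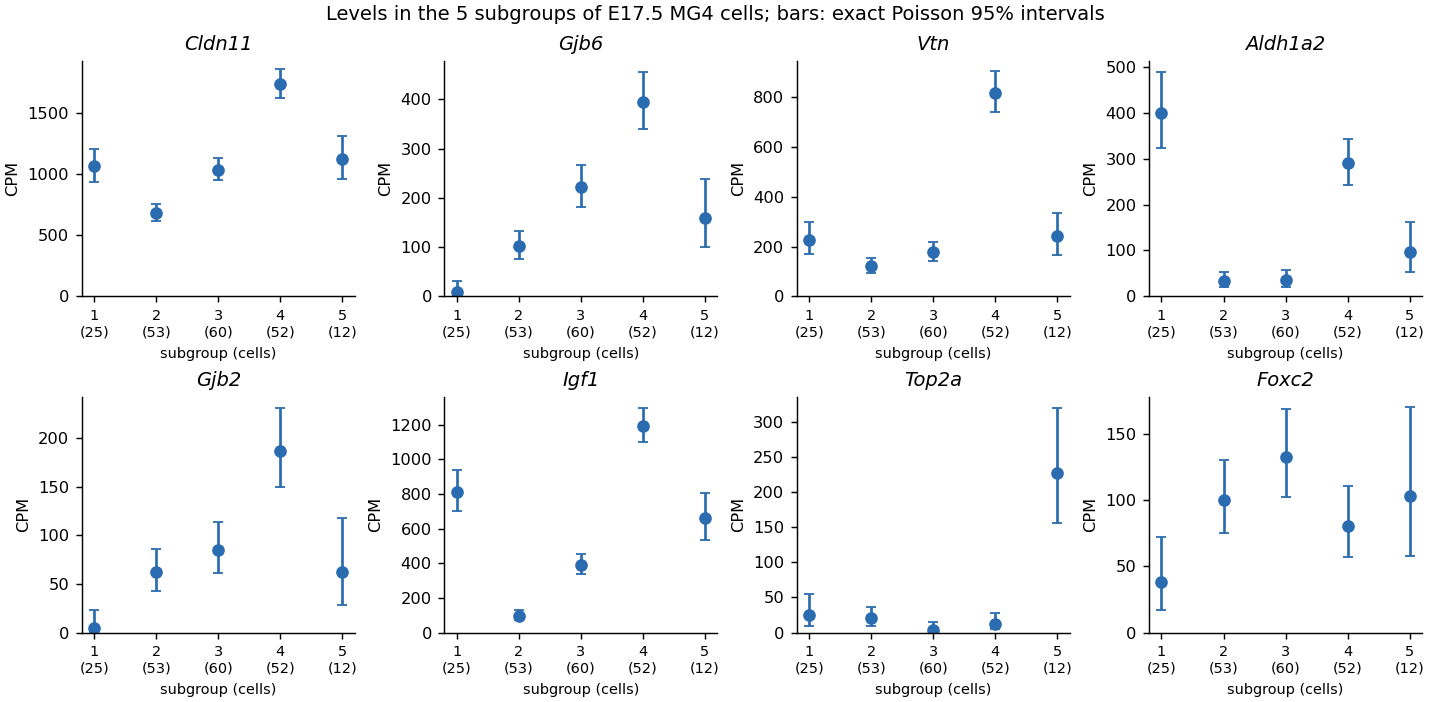
Level (CPM, linear axis from 0) of 8 genes in the 5 subgroups of MG4 cells at E17.5, with cell numbers in parentheses and exact Poisson 95% intervals as bars. *Gjb6*, *Vtn*, *Gjb2* and *Igf1* are highest in subgroup 4, *Aldh1a2* is high in subgroups 1 and 4, and *Top2a* stands out in subgroup 5.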

How the data were processed

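Both libraries were made with the droplet 10x assay. Per the file headers and the methods, the authors aligned reads to mm10 with Cell Ranger (3.1.0 in the E15.5 header, whereas the methods name an earlier version for all samples) and deposited raw UMI counts per gene and cell, with no normalization. The authors also deposited a cell table with cluster labels, UMI counts, percent of mitochondrial and haemoglobin UMIs, cell cycle scores (the S score and the G2M score) and phases, made in Seurat; labels and phases were used as given. At E15.5 the UMI totals in that table exceeded the matrix for all 5335 labelled cells (MG4 median 13189), and 5 further labelled cells had no barcode in the matrix.

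Genes were matched by identifier (27514). Counts were summed per cluster and compared as CPM among genes with a mean of at least 10 CPM in each library. A gene met the criterion at a 2-fold ratio (3-fold between stages) with 95% intervals apart. A count of 0 was entered as 3 in ratios. Cells with at least 1000 UMIs and 1000 genes, at most 7.5% mitochondrial and at most 3% of either haemoglobin were kept, and labelled cells always. Scrublet scored doublets per suffix (94th percentile), and none was removed. Subgroups came from Leiden clustering (1000 variable genes, 15 principal components, resolution 0.5) in scanpy 1.11.5. Code was tested on simulated data. Members and lists were chosen with earlier results of these data known. Named genes were those with the largest or smallest ratios (weaker library) among tested genes, with the members of the lists. Between stages they were taken from genes that met the criterion. Genes of the transporter-rich cells were chosen after their values were seen. The integrated expression table was not used here.
Some items are not reported here.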

Additional observations from a re-analysis of the deposited data

Results flagged for a closer look

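Cells without a deposited label were not part of any comparison. At E17.5, 12 of the 1937 such cells (0.620%) had UMIs of at least 3 of *Gjb6*, *Cldn11*, *Aldh1a2* and *Vtn*, above the 0.155% that a count of 0 would allow and against 5 of 6628 labelled cells outside MG4. Of the 12 cells, 8 had at least 3 UMIs of the pericyte gene *Rgs5*, 0 had a UMI of the leukocyte gene *Ptprc*, and 3 had a high doublet score. Their median depth was 11805 UMIs. The part of pericytes and of doublets in this signal was not tested.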

How the results depend on the processing

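Of the alternatives for single genes, 788 kept direction and lay near the value given, 143 moved and 3 reversed. The 788 include 66 from a minimum of 25 CPM and 66 from no minimum, settings that cannot alter the ratio of a gene. With equal weight of the other clusters 15 moved and 15 lay near the value given. Thinned to 3000 UMIs, 32 moved and 33 lay near it. The 3 were *Ces2g* against MG3 (1.45) and *Vamp5* between stages (1.12) in suffix 1 alone, and *Vtn* between stages without the transporter-rich cells (3.66). In suffix 1 alone, with 7 MG4 cells, 57 genes were lower than in the other cells, 17 were lower than in MG3, 262 met the stage criterion and the ratio of MG4 shares was 0.473. Without the transporter-rich cells, an alternative chosen after seeing the data, 21 genes were higher than in MG3. Thinned to 3000 UMIs, 20 were higher and 26 lower than in MG3. A minimum of 25 CPM gave 92 higher and 79 lower against the other cells, 21 higher against MG3 and 186 between stages; no minimum gave 275, 245 and, between stages, 666 (424 as reported). A 1.5-fold limit gave 305 and 284 against the other cells and 86 and 125 against MG3; a 3-fold limit gave 89, 72, 16 and 13. A 2-fold limit between stages gave 937. Over the meningeal clusters the share ratio was 1.60. Without cells of high doublet score, 186 and 201 genes differed from the other cells. No value could be given for 1 to 6 genes in 6 settings, where both groups had at most 3 UMIs. No paired analysis was possible because the stages share no replicate number and the E17.5 suffixes are not tied to batches. With suffix 2 or 3 as the E17.5 library, 172 and 170 genes were higher than in the other cells. Depth limits genes with few UMIs in the 64 cells at E15.5.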

Other observations

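Genes outside the lists were also among the most different from the other labelled cells. *Slc16a9*, a member of the monocarboxylate transporter family, was at 90.3 and 145 CPM, which was 11.3-fold and 31.0-fold above them. *Slitrk5*, a neuronal-type adhesion protein, was 16.2-fold and 22.0-fold higher, and *Frzb*, a secreted Wnt antagonist, 8.39-fold and 26.4-fold higher. At the other end, the homeobox gene *Irx3* was at 0.0362 and 0.0490 of the level in the other cells. These are ratios within 1 sample per stage.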
